A study of Cyclotella cryptica with 27 samples.

Results

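Histones and the proteins that modify or carry them were followed in the diatom Cyclotella cryptica, strain CCMP332, during the first 10 h after a change from seawater to freshwater. Members were all genes whose deposited protein name begins with the word histone, and this gave 54 of the 21250 counted genes. Of the 54, 25 were core histones (4 named H2A, 6 named H2B, 9 named H3 and 6 named H4) and 1 was a linker histone H1. The other 28 were 10 histone acetyltransferases, 4 deacetylases, 11 lysine methyltransferases, 2 histone chaperones or binding proteins and 1 histone RNA hairpin-binding protein. The names belong to UniProt entries from other organisms that the depositors paired with each gene, so they state likeness and not a tested function in this diatom. One entry for H3 was shared by 6 genes, one for H4 by 5 genes and one for H2B by 5 genes.

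DNA in a eukaryotic nucleus is wound around octamers of the core histones H2A, H2B, H3 and H4, and the linker histone H1 binds where the DNA enters and leaves. In animals and yeasts most core histone mRNA is made during DNA replication, while variants such as H3.3 are made throughout the cell cycle and replace histones outside replication. Acetyltransferases, deacetylases and methyltransferases add or remove small groups on histone tails, and chaperones hand histones to and from DNA.

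All groups shared the strain CCMP332, grown to exponential phase at 15 °C in artificial seawater of 24 ppt (parts per mille) salinity under a cycle of 16 h light and 8 h dark. The labels give every group the same growth irradiance and the same, slightly lower, treatment irradiance. The seawater control stayed at 24 ppt, and the 8 freshwater groups were spun at 800 rcf for 3 min, resuspended at 0 ppt and sampled at 0, 15 and 30 min and at 1, 2, 4, 8 and 10 h. Poly(A) RNA was sequenced and reads were counted per gene. The labels carry the same protocol for all groups, so they do not say whether the control was spun or kept at the lower irradiance. No later seawater sample was analysed here, so time at 0 ppt cannot be told apart from time since handling, the change in irradiance or the hour of the light cycle.

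Of the 27 labelled count columns, 16 were independent and 11 were copies, averages or weighted means of other columns of their group. The 3 columns each of the control, 0 min and 1 h groups came down to 1 column, the 15 min, 30 min, 2 h, 4 h and 8 h groups to 2 columns, and the 10 h group kept 3. In genes with a mean of at least 100 counts, replicate 2 mostly differed from replicate 1 by a fixed count. This was -7 in the control and 11 at 0 min, each in 99.95% of genes, and 27 at 1 h in 94.88%. Which of these columns is unshifted is not given, so levels of genes with few counts are uncertain in the control, 0 min and 1 h groups. All values below use the 16 independent columns, whose gene counts ranged from 2809130 to 6889349, the highest being a 30 min column. The labels do not say that columns came from separate cultures, so p-values measure only the spread between these columns. Levels are CPM, the counts of a gene scaled to a fixed library total, on a scale made comparable between columns by TMM normalisation. CPM is not divided by gene length, so levels were compared between columns of one gene and not between genes.

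Reads that aligned to more than 1 place were not counted for any gene, and these made up 15.9% to 34.1% of counted plus multiply aligned reads. The share was 28.3% in the control, 20.89% and 32.99% at 30 min and 27.3% at 1 h, so these groups overlapped in it. Histone genes often exist as near-identical copies, so counts of genes that share a histone name are uncertain and may miss most of the reads of such copies. Genes were tested with the quasi-likelihood test of edgeR, adjusted by Benjamini and Hochberg's method over 12501 genes, and a gene was called at an adjusted p below 0.05. Of the 54 members, 53 passed the filter on low counts, and CCRYP_005353, an H2B gene with at most 4 counts in a column, did not. For 3 core histones, 10 counts were reached in a 30 min column alone. The filter asks for enough depth in a single column, so a gene of low counts can pass through the group where it is high. Counts over the tested core histones thus lean towards such groups, 30 min among them, by the filter itself. These being bulk samples, a lower level cannot be told apart from fewer cells that make the RNA.

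Core histones made up most of the members that differed between times, and most of those shared a course. Their levels were highest at 30 min and 1 h, were lower again at 2 h, and were near the seawater level at 4 h and 8 h. Among the 9 groups, 24 of the 53 tested members differed, or 45.3%, beside 40.9% of all genes. Core histones made up 15 of these 24, which is 62.5% of the 24 tested, and enzymes and chaperones made up 9 of 28, or 32.1%. Among the 15 core histones with a mean of at least 10 counts over all columns, 12 differed. The share of all genes by that cut was not taken, so the 40.9% is not its background. Of the 15 core histones that differed, 8 had their highest group mean at 30 min and 5 at 1 h, with 1 each peaking at 2 h and 8 h. None had its lowest mean at 15 min, 30 min, 1 h or 2 h. The peaks of all genes were not tallied, so these counts have no background. Over all genes, 30 min and 1 h also had the largest shares called against the control, 30.7% and 18.4%. CCRYP_005355, CCRYP_000681, CCRYP_016435 and CCRYP_006041 passed the filter only through columns where they were high.

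**Figure D1:**
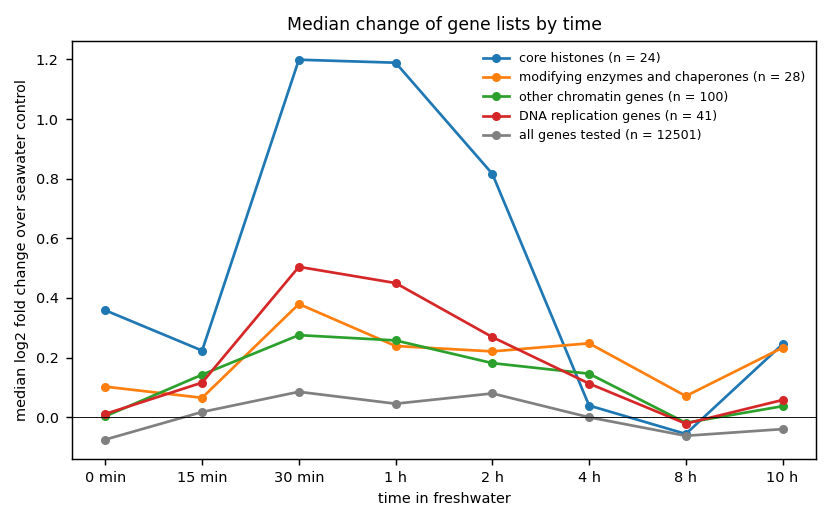
Median log2 fold change over the seawater control (vertical axis) at each time in freshwater (horizontal axis) for core histones, modifying enzymes and chaperones, 2 context lists and all tested genes, with n in the legend. The core histones stand at 1.20 at 30 min and 1.19 at 1 h and return to 0.04 at 4 h, while the median of all genes stays between -0.07 and 0.09.

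The median core histone was 0.36 higher on the log2 scale than the seawater control at 0 min and 0.22 higher at 15 min. The difference was 1.20 at 30 min and 1.19 at 1 h, and then 0.82 at 2 h. From there it was 0.04 at 4 h and -0.06 at 8 h, with 0.24 at the last time of 10 h. The median over all tested genes stayed between -0.07 and 0.09 at these times. Without the filter on low counts the core histone medians were 1.17 at 30 min, 1.15 at 1 h and -0.06 at 4 h. Modifying enzymes and chaperones had medians of 0.38 at 30 min and 0.24 at 1 h. With library size alone as the scale, the medians at 30 min were 1.46 for core histones, 0.64 for enzymes and chaperones and 0.34 for all genes, so the core histones stood about as far above all genes as before.

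Summed over the 24 core histones other than H3.3, the level was 231 CPM in the seawater control and 255 CPM at 0 min. It was 296 and 362 CPM in the 2 columns at 15 min, 555 and 441 CPM at 30 min and 531 CPM at 1 h. At 2 h it was 374 and 394 CPM, and at 4 h it was 257 and 274 CPM. The 8 h columns held 262 and 208 CPM and the 10 h columns 290.3, 315 and 257 CPM. The 3 columns of 30 min and 1 h thus lay above all others, the 2 h columns lay above the rest, and the columns of 4 h to 10 h overlapped the control and the 0 min column. The sum for H4 alone ran from 35.3 CPM in the control to 101 and 81.3 CPM at 30 min, and that for H3 without H3.3 from 51.0 CPM to 149 and 114 CPM. With H3.3 included the contrast was smaller. The sum of all 9 H3 genes was 214 CPM in the control, 323 and 303 CPM at 30 min and 330.0 CPM at 1 h, and that of all 25 core histones was 394 CPM in the control, 729 and 629.8 CPM at 30 min and 741 CPM at 1 h.

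**Figure D2:**
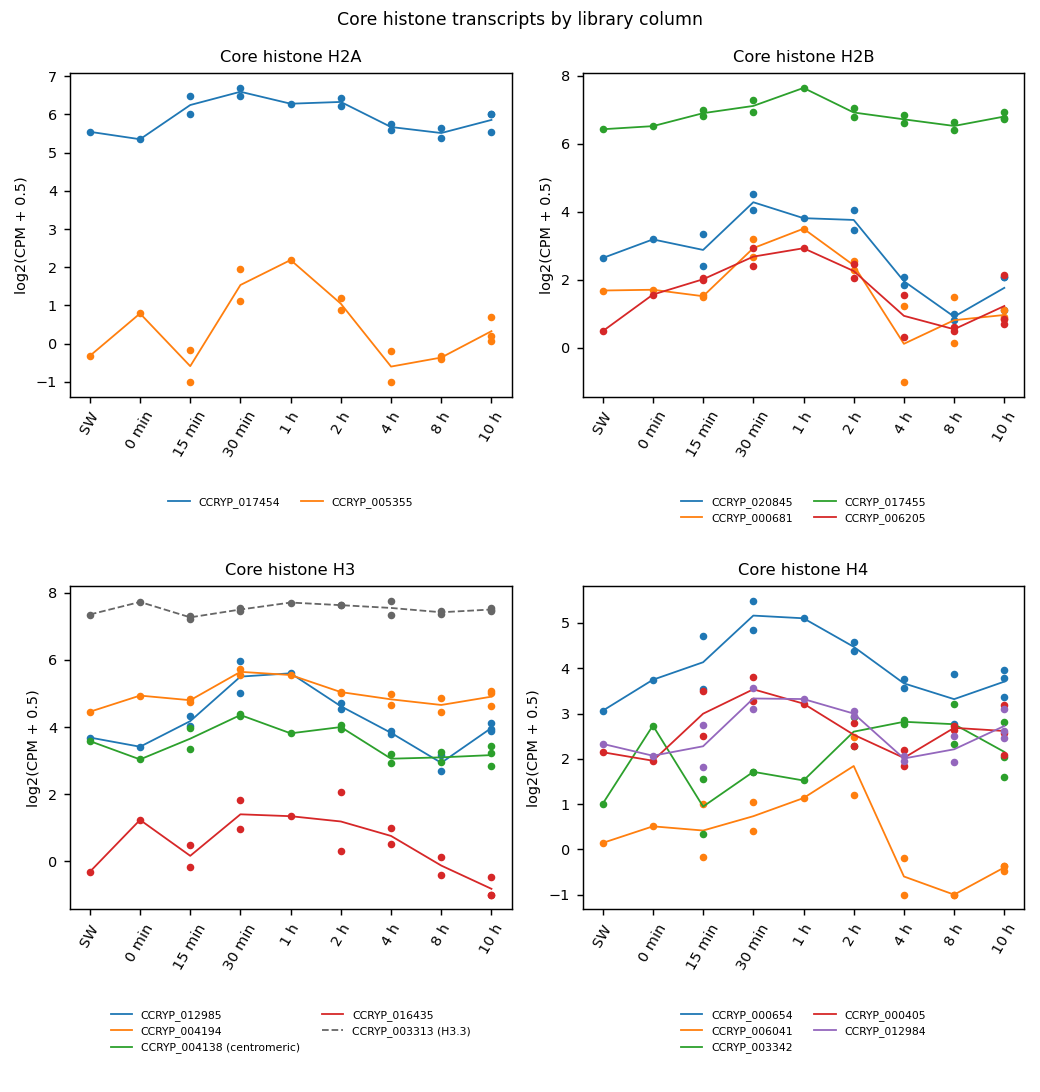
Level of each core histone that differed among the groups, with H3.3 added, as log2(CPM + 0.5) in every independent column (points), with a line through the group means, in 1 panel for each of H2A, H2B, H3 and H4. Most lines peak at 30 min or 1 h, while H3.3 (CCRYP_003313) stays between 149 and 218 CPM in all 16 columns.

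Among H2A genes, CCRYP_017454, named H2A-III, had the highest counts. It stood at 46.2 CPM in the control, 40.3 at 0 min, 64.4 and 88.3 at 15 min, 103 and 89.6 at 30 min, 77.2 at 1 h, 74.3 and 85.6 at 2 h, 47.8 and 53.2 at 4 h, 49.3 and 41.4 at 8 h, and 63.6, 64.5 and 46.2 at 10 h. Both 30 min columns lay above every other column, the 2 h and 15 min columns overlapped, and those of 4 h and 8 h lay close to the control. Its log2 fold change at 30 min over the control was 1.06 ± 0.25 (SE; n = 2 against 1; adjusted p = 0.00345, edgeR's quasi-likelihood test).

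CCRYP_005355, named H2A.1, was counted at low depth. The filter on low counts admitted it only through columns of 30 min and 1 h, so its high values there are partly selected. It stood at 0.302 CPM in the control, 1.23 at 0 min, 0 and 0.386 at 15 min, 3.39 and 1.67 at 30 min, 4.07 at 1 h, 1.35 and 1.81 at 2 h, 0 and 0.372 at 4 h, 0.257 and 0.300 at 8 h, and 0.656, 1.12 and 0.560 at 10 h. The columns from 30 min to 2 h were all above the others. The rise from 15 to 30 min was called (adjusted p = 0.0165, edgeR), but 15 min rests on 1 count against 34, a ratio of 16.9 with a 95% exact interval for counting error of 2.84 to 687. The other 2 H2A genes, CCRYP_000642 and CCRYP_000693, stayed at or below 3.35 CPM and were not called.

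H2B genes gave 4 that differed of 5 tested (80%, beside 40.9% of all genes). CCRYP_020845 stood at 5.74 CPM in the control, 8.62 at 0 min, 4.84 and 9.64 at 15 min, 22.3 and 16.1 at 30 min, 13.6 at 1 h, 16.2 and 10.5 at 2 h, 3.08 and 3.72 at 4 h, 1.28 and 1.501 at 8 h, and 3.72, 1.67 and 3.78 at 10 h. All 5 columns from 30 min to 2 h lay above all others, and every column from 4 h on lay below the control. Its log2 fold change over the control was 1.75 ± 0.49 at 30 min (SE; n = 2 against 1; adjusted p = 0.00888, edgeR), and the call was lost without 30 min replicate 2. It fell by 1.98 ± 0.44 on the log2 scale between 2 h and 4 h (adjusted p = 0.0132, edgeR), the one member called in that step, beside 2.17% of all genes called either way and 2.00% lower. That call was lost when 2 h replicate 1 or 4 h replicate 2 was left out.

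CCRYP_000681, another H2B gene, stood at 2.72 CPM in the control, 2.77 at 0 min, 2.42 and 2.31 at 15 min, 8.71 and 5.83 at 30 min, 10.8 at 1 h, 4.39 and 5.42 at 2 h, 0 and 1.86 at 4 h, 2.31 and 0.601 at 8 h, and 1.31, 1.40 and 1.68 at 10 h. It showed the same separation, with 5 columns from 30 min to 2 h above all others. The filter on low counts admitted it only through those columns, so this separation is partly selected. CCRYP_017455, the H2B gene with the highest counts, stood at 85.5 CPM in the control, 91.1 at 0 min, 112 and 126 at 15 min, 155 and 122 at 30 min, 199 at 1 h, 110 and 132 at 2 h, 96.5 and 114 at 4 h, 99.0 and 84.4 at 8 h, and 106, 121 and 107 at 10 h. Its 1 h column was the highest, and the other groups overlapped more than in CCRYP_020845. Its log2 fold change over the control was 1.22 ± 0.25 at 1 h (SE; 1 column against 1; adjusted p = 0.00276) and 0.70 ± 0.22 at 30 min (adjusted p = 0.0191, both edgeR), the latter not called without 30 min replicate 2.

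CCRYP_006205, an H2B gene of low counts, stood at 0.906 CPM in the control, 2.46 at 0 min, 3.63 and 3.47 at 15 min, 4.84 and 7.21 at 30 min, 7.11 at 1 h, 5.07 and 3.61 at 2 h, 2.47 and 0.744 at 4 h, 1.03 and 0.901 at 8 h, and 1.31, 1.12 and 3.92 at 10 h. The highest columns were those of 30 min and 1 h, with overlap at 2 h. It was called at 30 min (adjusted p = 0.028) and at 1 h (adjusted p = 0.0402, both edgeR), but the control rests on 3 counts, so the ratios of 6.14 and 7.85 have 95% intervals for counting error of 2.01 to 30.5 and 2.35 to 41.1. The 30 min call was lost without 30 min replicate 3, and neither call was made by DESeq2 or limma-voom.

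Of the 9 genes named H3, 4 differed among the groups (44.4%, beside 40.9% of all genes), and they had different roles by name. CCRYP_012985, with the plain name H3, had the smallest p of all members among the groups (adjusted p = 1.84e-07, edgeR). It stood at 12.4 CPM in the control, 10.2 at 0 min, 15.7 and 19.7 at 15 min, 62.5 and 32.2 at 30 min, 48.1 at 1 h, 22.6 and 25.6 at 2 h, 13.3 and 14.1 at 4 h, 8.47 and 6.01 at 8 h, and 14.9, 16.7 and 14.1 at 10 h. The 5 columns from 30 min to 2 h lay above all others, and the 8 h columns were the lowest of all. The 2 columns at 30 min stood far apart, with the 1 h column between them. Over the control it rose by a log2 fold change of 1.96 ± 0.36 at 30 min (adjusted p = 0.000787) and 1.96 ± 0.40 at 1 h (adjusted p = 0.00246), and from 15 to 30 min by 1.46 ± 0.27 (adjusted p = 0.000702). It rose again from 8 h to 10 h by 1.05 ± 0.30 (SE; n = 2 and 3; adjusted p = 0.0449, edgeR), the one member called in that step beside 3.66% of all genes either way and 2.77% higher. That call was lost when any 8 h or 10 h column was left out.

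CCRYP_004194, also named H3, stood at 21.4 CPM in the control, 30.2 at 0 min, 26.6 and 28.1 at 15 min, 52.5 and 46.9 at 30 min, 46.4 at 1 h, 32.8 and 32.1 at 2 h, 31.1 and 24.9 at 4 h, 28.7 and 21.3 at 8 h, and 32.1, 32.9 and 24.2 at 10 h. The columns of 30 min and 1 h lay above all others, and the control was among the lowest. It rose by a log2 fold change of 1.22 ± 0.28 at 30 min (adjusted p = 0.0028) and 1.11 ± 0.32 at 1 h (adjusted p = 0.0181, both edgeR). CCRYP_016435, named H3.2, stayed between 0 and 3.72 CPM in all columns, with the highest value in a 2 h column and 0 in 2 of the 10 h columns, and was called in none of the comparisons with the control. The filter on low counts admitted it only through 30 min replicate 3 and 2 h replicate 1, with 11 counts each. Its high values there are thus partly selected.

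CCRYP_004138 is named for the centromeric H3 of yeast, CSE4, which marks the place where chromosomes attach to the spindle. It stood at 11.5 CPM in the control, 7.69 at 0 min, 15.1 and 9.64 at 15 min, 20.3 and 19.7 at 30 min, 13.6 at 1 h, 16.2 and 14.8 at 2 h, 8.63 and 7.07 at 4 h, 8.98 and 7.21 at 8 h, and 10.3, 8.93 and 6.58 at 10 h. Both 30 min columns lay above all others, although the gene was called in no single comparison with the control (adjusted p among the groups = 0.00279, edgeR). The other 4 genes with the plain name H3, CCRYP_000655, CCRYP_003327, CCRYP_003332 and CCRYP_006042, stayed at or below 5.76 CPM and were not called.

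The replacement-type H3.3 gene, CCRYP_003313, did not follow the other H3 genes in level. It stood at 163 CPM in the control, 212 at 0 min, 149 and 159 at 15 min, 174 and 189 at 30 min, 209 at 1 h, 197 and 200 at 2 h, 161 and 218 at 4 h, 177 and 166 at 8 h, and 178, 189 and 177 at 10 h. Every group overlapped others, and the 2 columns of 4 h spanned nearly the whole range. The test among the groups did not call it (adjusted p = 0.416, edgeR), and its log2 fold change was 0.15 ± 0.21 at 30 min and 0.36 ± 0.24 at 1 h over the control (adjusted p = 0.601 and 0.300, edgeR). The difference between H3.3 and the other H3 genes was not itself tested.

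Of 6 genes named H4, 5 differed among the groups (83.3%, beside 40.9% of all genes). CCRYP_000654 stood at 7.85 CPM in the control, 12.9 at 0 min, 11.2 and 25.8 at 15 min, 44.5 and 28.0 at 30 min, 33.9 at 1 h, 23.3 and 20.2 at 2 h, 11.4 and 13.03 at 4 h, 14.1 and 6.31 at 8 h, and 13.3, 15.1 and 9.79 at 10 h. The columns of 30 min and 1 h lay above all others, and the 2 columns at 15 min stood far apart. It rose by a log2 fold change of 2.23 ± 0.49 at 30 min (adjusted p = 0.00295) and 2.10 ± 0.55 at 1 h (adjusted p = 0.0135, both edgeR).

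CCRYP_000405 stood at 3.92 CPM in the control, 3.38 at 0 min, 5.14 and 10.8 at 15 min, 13.4 and 9.15 at 30 min, 8.81 at 1 h, 6.42 and 4.33 at 2 h, 3.08 and 4.09 at 4 h, 6.16 and 5.71 at 8 h, and 3.72, 8.65 and 5.46 at 10 h. Its 15 and 30 min columns overlapped, and it was called at 30 min over the control with a log2 fold change of 1.55 ± 0.56 (adjusted p = 0.0385, edgeR), but not with DESeq2, with limma-voom or without 30 min replicate 2. CCRYP_012984 stood at 4.53 CPM in the control, 3.69 at 0 min, 3.02 and 6.17 at 15 min, 11.4 and 8.05 at 30 min, 9.49 at 1 h, 7.77 and 7.22 at 2 h, 3.70 and 3.35 at 4 h, 5.13 and 3.303 at 8 h, and 8.09, 5.58 and 5.04 at 10 h. It was highest at 30 min and 1 h, with overlap at 10 h.

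The last pair of H4 genes had other courses and few counts. CCRYP_006041 stood at 0.604 CPM in the control, 0.923 at 0 min, 1.51 and 0.386 at 15 min, 1.57 and 0.832 at 30 min, 1.69 at 1 h, 5.07 and 1.81 at 2 h, 0 and 0.372 at 4 h, 0 in both columns at 8 h, and 0.219, 0.279 and 0.280 at 10 h. Its 2 h columns were the highest, but the filter on low counts admitted it only through 2 h replicate 1, with 15 counts. Its peak at 2 h is thus partly selected. CCRYP_003342, paired with a different UniProt entry from the other H4 genes, stood at 1.51 CPM in the control, 6.15 at 0 min, 2.42 and 0.771 at 15 min, 2.78 and 2.77 at 30 min, 2.37 at 1 h, 7.10 and 4.33 at 2 h, 6.79 and 6.33 at 4 h, 8.72 and 4.50 at 8 h, and 6.56, 2.51 and 3.64 at 10 h. Its columns at 30 min and 1 h lay below its 2 h, 4 h and 8 h columns, and it had its highest mean at 8 h. CCRYP_001985, the one H4 gene that did not differ among the groups, stood at 16.9 CPM in the control and at 27.3 and 32.5 CPM at 30 min.

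The linker histone H1 gene, CCRYP_012458, stood at 60.4 CPM in the control, 53.9 at 0 min, 70.8 and 54.0 at 15 min, 97.3 and 64.4 at 30 min, 101 at 1 h, 73.0 and 61.0 at 2 h, 65.1 and 56.9 at 4 h, 57.5 and 66.1 at 8 h, and 73.2, 59.7 and 66.0 at 10 h. One of the 30 min columns and the 1 h column were high, and the other 30 min column lay among the rest. It was not called among the groups (adjusted p = 0.0914, edgeR).

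Against the seawater control, 15 members were called at 30 min, 13 higher and 2 lower. This is 28.3% of the 53 tested, beside 30.7% of all genes called either way, 14.0% higher and 16.7% lower. All 8 called histones were higher, and the enzymes and chaperones were split into 5 higher and 2 lower of 28. Without 30 min replicate 2, the deepest column, 7 of 52 members were called, beside 13.6% of all genes, and without replicate 3, 10 of 52 were, beside 27.5%. The core histone median was then 1.18 and 1.31. At 1 h, 7 members were called, all higher and 5 of them core histones, beside 18.4% of all genes called either way and 9.79% higher. The 1 h group and the control each hold 1 independent column, so this contrast takes its spread from the other groups.

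No member was called at 0 min, 15 min, 2 h or 8 h by edgeR, DESeq2 or limma-voom. At an unadjusted p below 0.05, edgeR had 3 of the 53 members at 0 min (5.66%, beside 11.7% of all genes by the same rule) and 6 at 15 min (11.3%, beside 11.7%). It had 14 members at 2 h (26.4%, beside 25.2%) and 4 at 8 h (7.55%, beside 7.24%); these shares lie near or below those of all genes. By adjusted p, the share of all genes called was 0% at 0 min, 0.0880% at 15 min, 4.89% for 2 h and 0.0240% for 8 h. One member was called at 4 h, beside 3.77% of all genes either way and 2.70% higher, and 2 at 10 h, beside 8.33% either way, 4.69% higher and 3.64% lower (0 members without 10 h replicate 1, beside 2.47% of all genes, and 1 without replicate 2, beside 4.13%), and all of these were enzymes or binding proteins. With the 0 min column in place of the seawater control, 3 members were called at 30 min (5.66%, beside 6.46% of all genes in that contrast) and 2 at 1 h (3.77%, beside 5.48%), while the core histone medians were 1.19 and 0.90.

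Between 15 and 30 min, 10 members were called, 9 higher and 1 lower, beside 24.2% of all genes either way, 10.7% higher and 13.5% lower. Core histones made up 8 of the 9 that rose. Besides CCRYP_012985 and CCRYP_005355, these were the H2B genes CCRYP_020845 at a log2 fold change of 1.45 ± 0.37 (SE) and CCRYP_000681 at 1.64 ± 0.58, the H3 gene CCRYP_004194 at 0.87 ± 0.21, and the H4 genes CCRYP_000654, CCRYP_012984 and CCRYP_001985 at 1.02 ± 0.34, 1.14 ± 0.41 and 0.75 ± 0.25. Without 15 min replicate 1 the count was 2, beside 3.74% of all genes, and without 30 min replicate 2 it was 3, beside 9.09%, CCRYP_012985 being called in both cases.

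**Figure D3:**
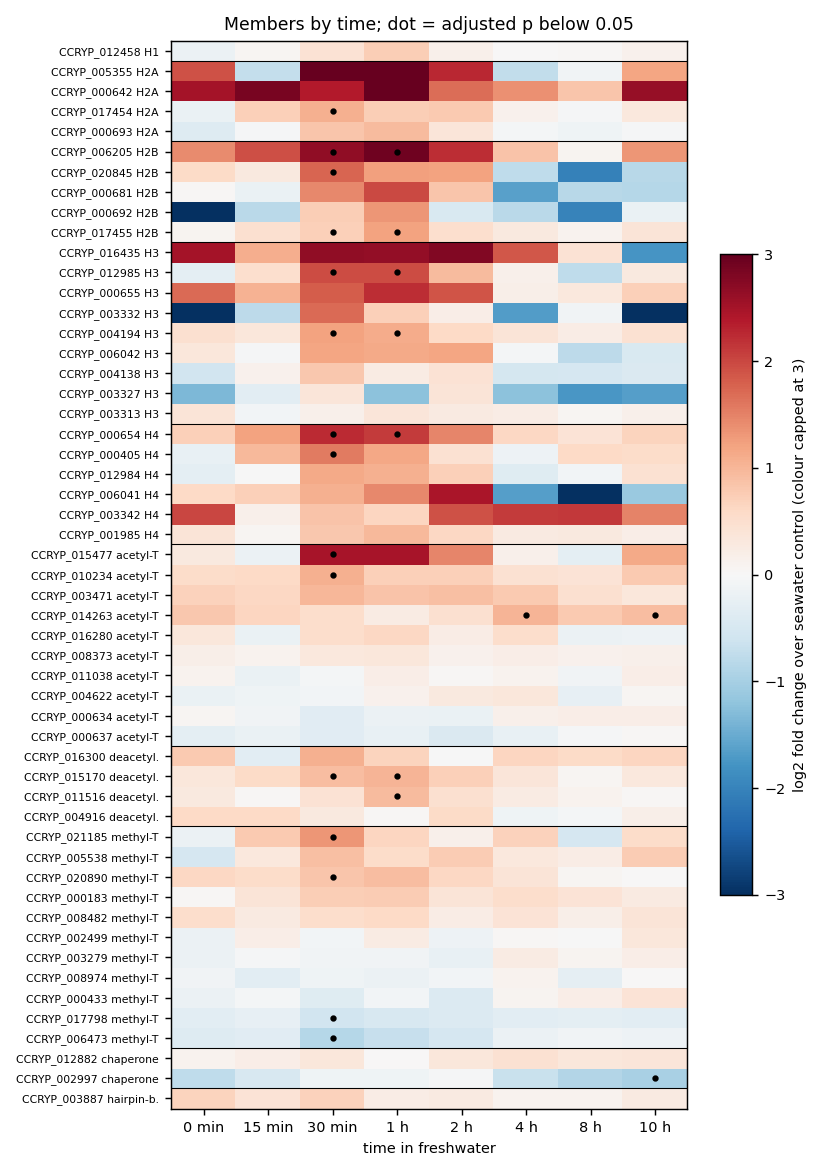
Log2 fold change of every tested member over the seawater control (colour, capped at 3 in either direction) at the 8 times in freshwater (horizontal axis), with rows grouped by role and a dot where the adjusted p was below 0.05. The dots lie mainly in the 30 min and 1 h columns, where 15 and 7 members were called, and the 0 min, 15 min, 2 h and 8 h columns hold none.

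Of 10 genes named for histone acetyltransferases, 3 differed among the groups (30%, beside 40.9% of all genes), and each took a different course. CCRYP_015477 is named for the type B catalytic subunit, an enzyme known to acetylate newly made histones in the cytoplasm before they reach DNA. It stood at 1.51 CPM in the control, 1.85 at 0 min, 2.12 and 0.386 at 15 min, 9.07 and 7.77 at 30 min, 8.47 at 1 h, 1.35 and 7.22 at 2 h, 1.85 and 1.49 at 4 h, 1.80 and 0.601 at 8 h, and 2.84, 3.91 and 3.36 at 10 h. The columns of 30 min and 1 h were the highest, and the 2 columns of 2 h were on opposite sides. Its log2 fold change was 2.47 ± 0.81 at 30 min over the control (adjusted p = 0.0239) and 2.64 ± 0.65 over 15 min (adjusted p = 0.00533, both edgeR). The first call was lost without 30 min replicate 2, and the second without 15 min replicate 3. The other gene with this name, CCRYP_011038, stayed between 20.6 and 29.8 CPM and was not called.

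CCRYP_014263 is named for a MYST family acetyltransferase, a family that acetylates histone H4 in plants and animals. It stood at 24.5 CPM in the control, 42.8 at 0 min, 40.8 and 35.5 at 15 min, 37.3 and 32.7 at 30 min, 28.8 at 1 h, 39.9 and 27.8 at 2 h, 56.1 and 42.0 at 4 h, 48.7 and 35.4 at 8 h, and 50.7, 44.1 and 45.6 at 10 h. The control was its lowest column and the 4 h and 10 h columns were among its highest. It rose over the control by a log2 fold change of 1.01 ± 0.29 at 4 h (adjusted p = 0.0454) and 0.94 ± 0.27 at 10 h (adjusted p = 0.0328, both edgeR). The 4 h call was lost without 4 h replicate 2, and the 10 h call without 10 h replicate 1 or 2. Both calls were lost against 0 min, where this gene already stood higher than in the control.

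CCRYP_004622 is 1 of 3 genes named for HAC12, a plant member of the CBP and p300 type of acetyltransferase. It stood at 223 CPM in the control, 195 at 0 min, 208 and 200.4 at 15 min, 209 and 211 at 30 min, 245 at 1 h, 285 and 262 at 2 h, 302 and 261 at 4 h, 189 in both columns at 8 h, and 226, 232 and 235 at 10 h. The 2 h and 4 h columns were the highest and those of 8 h the lowest. It fell by 0.58 ± 0.16 on the log2 scale from 4 h to 8 h (adjusted p = 0.0461, edgeR), the one member called in that step, beside 3.34% of all genes either way and 2.81% lower, and the call was lost when either 8 h column or 4 h replicate 2 was left out. CCRYP_010234, named KAT8 and picked here after its values were seen, was called at 30 min with a log2 fold change of 1.07 ± 0.40 (adjusted p = 0.0436, edgeR). The genes named GCN5 (CCRYP_008373), CREBBP (CCRYP_016280), MCC1 (CCRYP_003471) and the other 2 named HAC12 (CCRYP_000634 and CCRYP_000637) were not called.

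**Figure D4:**
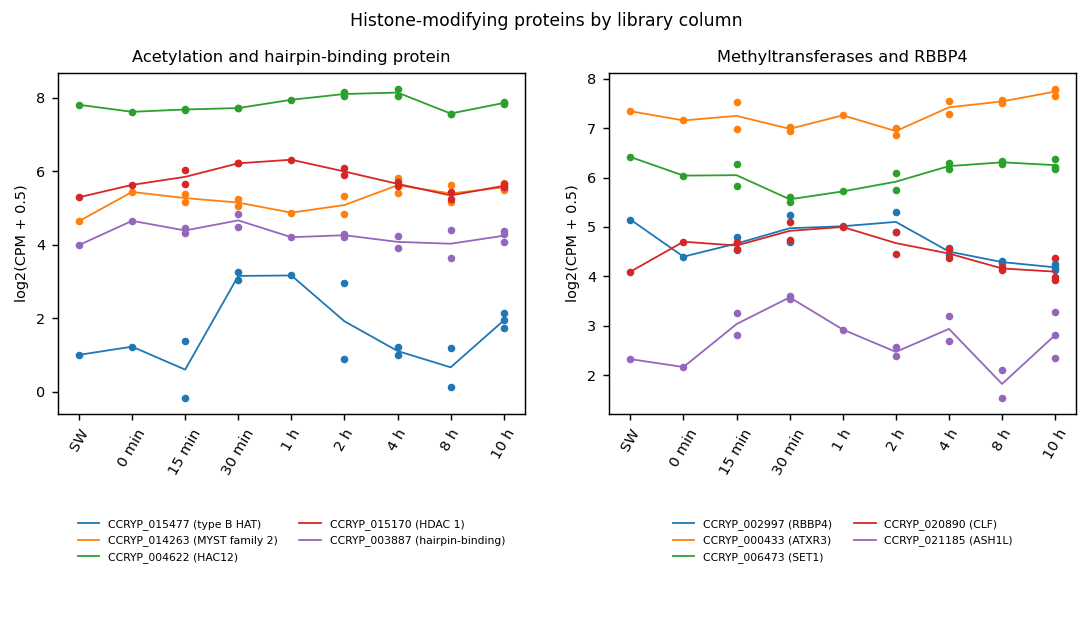
Level of each named acetyltransferase, deacetylase, methyltransferase, binding protein and hairpin-binding protein, as log2(CPM + 0.5) in every independent column (points), with a line through the group means. The type B acetyltransferase CCRYP_015477 is high at 30 min and 1 h, at 7.77 to 9.07 CPM, while the H3 lysine-4 methyltransferase CCRYP_006473 is low there, at 45.1 to 52.2 CPM.

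Of 4 deacetylases, which remove acetyl groups from histones, 1 differed among the groups (25%, beside 40.9% of all genes). CCRYP_015170, named for histone deacetylase 1, stood at 38.6 CPM in the control, 48.9 at 0 min, 49.9 and 65.1 at 15 min, 73.9 and 73.5 at 30 min, 78.9 at 1 h, 67.2 and 59.2 at 2 h, 47.8 and 52.1 at 4 h, 43.1 and 37.2 at 8 h, and 49.9, 47.2 and 47.1 at 10 h. The columns of 30 min and 1 h lay above all others, and the 2 h columns came next together with one 15 min column. Its log2 fold change over the control was 0.93 ± 0.23 at 30 min (adjusted p = 0.00428) and 1.03 ± 0.26 at 1 h (adjusted p = 0.0093, both edgeR). The other gene named deacetylase 1, CCRYP_011516, singled out after its values were seen, was called at 1 h (0.94 ± 0.32, adjusted p = 0.0424, edgeR). The genes named deacetylase 6 (CCRYP_004916), known in animals for acting on tubulin, and phd1 (CCRYP_016300) were not called.

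Among 11 lysine methyltransferases, 4 differed among the groups, or 36.4%, beside 40.9% of all genes. At 30 min 2 of the 11 were called higher and 2 lower, beside 14.0% of all genes higher and 16.7% lower. CCRYP_006473 is named for SET1, the subunit of the COMPASS complex that methylates lysine 4 of H3 at active genes in yeast. It stood at 84.8 CPM in the control, 65.2 at 0 min, 76.5 and 56.3 at 15 min, 45.1 and 48.3 at 30 min, 52.2 at 1 h, 53.1 and 67.6 at 2 h, 71.9 and 77.4 at 4 h, 77.2 and 80.2 at 8 h, and 73.2, 72.0 and 82.0 at 10 h. The columns of 30 min and 1 h lay below all others. It fell by 0.86 ± 0.22 on the log2 scale at 30 min against the control (adjusted p = 0.00485, edgeR), a call lost without 30 min replicate 2. CCRYP_008974, also named SET1, stayed between 39.3 and 57.4 CPM and was not called.

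CCRYP_000433 is named for ATXR3, a trithorax-related H3 lysine-4 methyltransferase of plants. It stood at 162 CPM in the control, 142 at 0 min, 183 and 125 at 15 min, 129.9 and 122 at 30 min, 152 at 1 h, 116 and 128 at 2 h, 187 and 156 at 4 h, 181 and 189.8 at 8 h, and 222, 199 and 218 at 10 h. The 10 h columns were the highest and those of 30 min and 2 h were among the lowest, but no time was called against the control. CCRYP_017798, named TRX1 and picked after its values were seen, fell by 0.57 ± 0.22 at 30 min on the log2 scale (adjusted p = 0.0498, edgeR).

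CCRYP_020890 is named for CURLY LEAF, the plant polycomb enzyme that methylates lysine 27 of H3 at silenced genes. It stood at 16.6 CPM in the control, 25.5 at 0 min, 22.98 and 25.4 at 15 min, 26.2 and 33.9 at 30 min, 31.5 at 1 h, 29.4 and 21.3 at 2 h, 23.1 and 20.1 at 4 h, 17.7 and 17.1 at 8 h, and 20.3, 15.3 and 14.7 at 10 h. It was highest at 30 min and 1 h and stood near the control level at 8 h, with overlap between neighbouring times. At 30 min it stood 0.84 ± 0.31 higher on the log2 scale (adjusted p = 0.0396, edgeR), a call that DESeq2 and limma-voom did not make and that was lost without 30 min replicate 3.

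CCRYP_021185 is named for ASH1L, known in animals for methylating lysine 36 of H3. It stood at 4.53 CPM in the control, 4.00 at 0 min, 9.07 and 6.55 at 15 min, 11.2 and 11.7 at 30 min, 7.11 at 1 h, 4.73 and 5.42 at 2 h, 8.63 and 5.96 at 4 h, 3.85 and 2.40 at 8 h, and 4.59, 9.21 and 6.58 at 10 h. Both 30 min columns lay above all others. At that time its log2 fold change was 1.33 ± 0.50 (adjusted p = 0.0464, edgeR), not called by DESeq2 or limma-voom, nor without either 30 min column. The other 6 methyltransferases, named ASHR1, ASHH2, EHMT2, SMYD3 (2 genes) and SET1, were not called.

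Of the chaperones and binding proteins, RBBP4 binds histone H4 within several chromatin complexes, the CAF-1 assembly factor among them. Its gene, CCRYP_002997, stood at 35.0 CPM in the control, 20.6 at 0 min, 27.2 and 22.7 at 15 min, 37.5 and 25.5 at 30 min, 31.8 at 1 h, 39.2 and 29.3 at 2 h, 21.0 and 23.4 at 4 h, 19.2 and 18.9 at 8 h, and 18.6, 17.0 and 17.5 at 10 h. All 8 h and 10 h columns lay below all others, with those of 10 h the lowest. It fell by 0.98 ± 0.26 on the log2 scale at 10 h against the control (n = 3 against 1; adjusted p = 0.0223, edgeR), but against the 0 min column, where it also stood low, it was not called, nor without 10 h replicate 1.

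The other chaperone, asf1 (CCRYP_012882), carries H3 and H4 dimers and stayed between 26.3 and 37.9 CPM without a call. CCRYP_003887 is named for the hairpin-binding protein that in animals holds the stem-loop ending replication-dependent histone mRNAs, which there carry no poly(A) tail. It stood at 15.4 CPM in the control, 24.6 at 0 min, 19.4 and 21.6 at 15 min, 21.8 and 28.3 at 30 min, 17.9 at 1 h, 19.3 and 18.1 at 2 h, 18.5 and 14.5 at 4 h, 20.8 and 12.01 at 8 h, and 20.1, 19.0 and 16.5 at 10 h. The groups overlapped, with an adjusted p of 0.339 among them (edgeR). The libraries hold poly(A) RNA, so histone mRNA without such a tail would not be counted, and whether this diatom makes any was not tested.

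Genes of DNA replication and of other chromatin proteins were read beside the histones, from lists of deposited names. The replication list had 41 tested genes (licensing factors, PCNA, ribonucleotide reductase, replication factors and polymerases). Of these, 11 were called higher and 1 lower at 30 min, and 11 higher at 1 h. This is 29.3% and 26.8% beside 30.7% and 18.4% of all genes called either way. All genes called higher alone were 14.0% at 30 min and 9.79% at 1 h. Their median log2 fold change was 0.50 at 30 min, 0.45 at 1 h and 0.11 at 4 h. From this list PCNA was picked outside the rule for printed members. This sliding clamp of the replication polymerases (CCRYP_011510) stood at 26.6 CPM in the control, 53.2 and 44.4 CPM at 30 min, 50.8 at 1 h and 23.7 and 27.2 at 4 h. This course has its high columns at the same times as most core histones, and the link between the lists was not tested.

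Of 100 tested genes of the wider chromatin list, 19 were called higher and 8 lower at 30 min by the same test. This is 27% of the 100, beside 30.7% of all genes called either way, 14.0% higher and 16.7% lower. Genes named from it below were picked outside the rule for printed members. The median log2 fold change of the list was 0.28 at that time. Some names in it, such as those of proteins that act on membranes or on calmodulin, entered by a shared word. The list also holds histones whose names begin with another word. Among these are 3 genes named late histone H2A.1, of which 2 were called higher at 30 min. Among its members, FAS2 (CCRYP_004139), a subunit of the CAF-1 complex that places H3 and H4 on newly copied DNA, stood at 3.92 CPM in the control and 28.2 and 15.5 CPM at 30 min, a log2 fold change of 2.51 (adjusted p = 0.00125, edgeR). Genes named for the subunits of FACT, which moves histones aside for polymerases, differed from each other at 30 min, with a log2 fold change of 0.70 for SSRP1 (CCRYP_011061, adjusted p = 0.0194) and 0.04 for SPT16 (CCRYP_011759, adjusted p = 0.905, both edgeR).

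Some histones have names that begin with another word and were therefore no members but part of the wider chromatin list. CCRYP_008604, a probable H2A variant 3, stood at 21.1 CPM in the control, 54.3 and 49.4 CPM at 30 min and 44.7 at 1 h, a log2 fold change of 1.30 at 30 min (adjusted p = 0.00117, edgeR). CCRYP_020846, a late histone H2A.1, stood at 2.72 CPM in the control, 16.5 and 8.32 CPM at 30 min and 10.2 at 1 h (2.22 at 30 min, adjusted p = 0.012, edgeR). These followed the course of the member core histones, while a further late H2A.1, CCRYP_011646, stood at 4.53 CPM in the control and at 2.42 and 1.11 CPM at 30 min and was not called.

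In the authors' deposited table, whose fold changes were taken against 0 min, 45 members had a p-value. Of these, in the authors' deposited table, 27 had an adjusted p below 0.05 at 30 min, 18 of them core histones, and 28 at 1 h, 15 of them core histones. These are 60% and 62.2% of the 45, beside 56.2% and 51.9% of the 10569 genes with a p-value in the authors' deposited table. In the authors' deposited table all of these members carried a sign opposite to that of the same contrast computed here from the counts. A negative value there thus goes with a higher level at the later time than at 0 min, itself a freshwater group. The 16 independent columns gave 3 and 2 called members in those contrasts with 0 min, and all 27 labelled columns treated as separate gave 40 of 47 tested members at 30 min against the seawater control in place of 15, beside 71.0% of all genes in that fit.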

How the data were processed

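Poly(A) RNA libraries of 27 labelled columns in 9 groups were deposited as raw counts per gene; the authors used STAR 2.7.3a, HTSeq 0.11.3 and edgeR, per the submitters' processing notes, while the genome build and annotation were not given in the sources used here. The authors also deposited a table of log2 fold changes and p-values against 0 min. From it were taken counts of members, the signs of their fold changes and shares of all genes. Of the 27 columns, 11 were copies, some shifted by a fixed count per gene, or means of others, and were left out. At 30 min, 2 h, 4 h and 8 h the column left out lay within 1 count of the mean of the other 2 columns for 99.94% to 99.96% of genes.

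Counts of 16 columns were fitted with edgeR 4.0.16 (R 4.3.3; robust quasi-likelihood, TMM, filterByExpr with a minimum count of 10, one term per group, 7 residual degrees of freedom), with Benjamini-Hochberg adjustment over 12501 genes and a threshold of 0.05. Depth ranged from 2809130 to 6889349 counts, and edgeR's common coefficient of variation between columns was 14.2%. Each SE was derived from the quasi-likelihood test, as the absolute log2 fold change over the square root of the F statistic. On simulated counts with 200 changed genes of 12501, the contrast of 30 min with the control recovered 60% of 2-fold and 99% of 4-fold changes, with 6 false among 165 calls. The changed genes were not drawn from those of lowest level, so these rates do not cover members of few counts. Far fewer genes were changed there than the 30.7% called at 30 min in the data. Intervals for ratios of counts are exact (95%) and cover counting error only, not a fixed shift of a column. DESeq2 1.42.0, limma-voom (limma 3.58.1), other scalings, no filter, all 27 columns, the mean of copied columns, 0 min as baseline, a replicate term and leaving out single columns were the alternatives.

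Values in every column were given for core or linker histones that differed among the groups, for up to 4 enzymes or chaperones per role that differed, and for the member with the highest mean count in a role with none; H3.3 was added as a contrast to the other H3 genes. The members, lists and this rule were chosen with earlier results of these data known. None of 21250 gene identifiers matched the 14109 reference genes, so positions and sequences were not used here.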

Additional observations from a re-analysis of the deposited data

Results flagged for a closer look

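Steps between neighbouring times where a member was called are listed here, since in each the later group differed from the earlier one in edgeR's test of that difference (log2 fold change, later over earlier). From 15 to 30 min the core histones CCRYP_005355 (3.752, with 1 count at 15 min), CCRYP_000681 (1.639), CCRYP_020845 (1.454), CCRYP_004194 (0.867), CCRYP_012985 (1.457), CCRYP_000654 (1.025), CCRYP_001985 (0.752) and CCRYP_012984 (1.142) rose. In the same step the type B acetyltransferase CCRYP_015477 rose by 2.639, and the SET1-like methyltransferase CCRYP_006473 changed by -0.517. The H2B gene CCRYP_020845 changed by -1.975 from 2 h to 4 h, the HAC12-named acetyltransferase CCRYP_004622 by -0.576 from 4 h to 8 h, and the H3 gene CCRYP_012985 by 1.049 from 8 h to 10 h. The last 3 steps each hold a single called member among 53 tested, and each of these calls was lost when at least 1 column was left out.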

How the results depend on the processing

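Counts of called members, given against the main counts of 24 among the groups, 0, 0, 15, 7, 0, 1, 0 and 2 from 0 min to 10 h over the control, and 10, 1, 1 and 1 for 30 over 15 min, 4 over 2 h, 8 over 4 h and 10 over 8 h, depended most on which columns were used. The fit of all 27 columns counted copies and means as samples. It gave 44 among the groups, 18, 16, 40, 29, 27, 15, 8 and 22 over the control, and 32, 20, 6 and 12 for the steps. With 0 min as baseline 3 were called at 30 min and 2 at 1 h, then 0 for 4 h, 1 for 8 h and 0 for 10 h. DESeq2 called 8 at 30 min and 4 for 30 over 15 min. Limma-voom called 9 at 30 min, 0 at 4 h and 0 for 10 over 8 h. Library size alone gave 11 at 1 h, 1 at 10 h, and 0 for 8 over 4 h and 10 over 8 h, and DESeq2's size factors 0 for 8 over 4 h. No filter gave 2 at 2 h, 4 for 4 over 2 h and 0 for 8 over 4 h. The mean of the copied columns gave 0 at 4 h and 0 for 8 over 4 h. The cause of these shifts was not tested.

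Leaving out single columns gave 18 to 26 among the groups, 0 at 0 min, 15 min and 8 h, 7 to 17 at 30 min, 6 to 9 at 1 h, 0 to 1 at 2 h, 0 to 2 at 4 h and 0 to 2 at 10 h. It gave 2 to 11 for 30 over 15 min, 0 to 2 for 4 over 2 h, 0 to 2 for 8 over 4 h and 0 to 1 for 10 over 8 h. With the replicate number as a block, 9 were called at 30 min and 3 at 1 h, then 1 for 2 h, 2 for 4 h, 5 for 30 over 15 min and 3 for 4 over 2 h. The numbers share no source in the labels, and same-numbered columns' deviations correlated at -0.163 to 0.357, so the pairing is not given by the design. For the 34 calls of named genes, 616 of their recomputed values kept the call, 120 lost it and none changed sign. The control, 0 min and 1 h groups have 1 column each and could not be left out.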
